A study of Mus musculus with 6 samples.

Results

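The 8 genes of hepatic glycolysis and fructose metabolism studied here were Gckr, Pklr, Khk, Tkfc, Slc2a2, Pfkl, Pfkfb1 and Gpi1. Their transcripts were compared between livers of mice labelled as a liver-specific knockout of G3bp1 and livers of floxed control mice. The genes were chosen by name for their place in the pathway, and their counts were summed over all annotated transcripts of each. They are 8 of 35082 genes with a summed count, and all 8 were among the 12497 genes that passed the filter on low counts. The group LKO_HFD held 3 male mice of genotype G3BP1f/f with Alb-cre. Their Cre recombinase is under the albumin promoter, so that the deletion is directed to hepatocytes. The group WT_HFD held 3 male mice of genotype G3BP1f/f without Cre, so both groups carried the floxed alleles. All 6 mice were 8 weeks old when high-fat feeding began and were fed so for 20 weeks, and no group on another diet was analysed here. Libraries are called LKO 1 to LKO 3 and WT 1 to WT 3 by their label. The p-values measure the spread between these animals, 1 library each. In a bulk liver sample, fewer cells of a type and less RNA per cell cannot be told apart.

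The liver takes up glucose and fructose from portal blood and can turn either into pyruvate, which feeds the synthesis of fat. Glucose enters hepatocytes through GLUT2, is phosphorylated there under the control of a regulatory protein, and passes through steps that phosphofructokinase and its allosteric activator fructose 2,6-bisphosphate govern. Fructose bypasses these steps: ketohexokinase, triokinase and the cleavage step between them deliver it as triose phosphates, which join glycolysis above pyruvate kinase. The transcription factor ChREBP, encoded by Mlxipl, is known to raise liver pyruvate kinase and other genes of the pathway when carbohydrate is plentiful.

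The libraries held 20899135 to 21750007 estimated counts each, and the 8 genes held between 2273 counts (Pfkl) and 44557 counts (Khk) over the 6 libraries. Albumin stood at 42779 to 88228 CPM (a gene's counts scaled to a fixed library total), whereas 5 muscle markers together reached at most 0.43 CPM. The 10 hepatocyte markers, albumin among them, measured in sum 112626, 109870 and 65129 CPM in LKO 1 to 3, against 93984, 96856 and 123091 CPM in WT 1 to 3. LKO 3 was thus the lowest library for them, and 5 of the 10 had log2 differences above 0 and 5 below. Their part in the values of the 8 genes was not tested. G3bp1 itself measured 44.0, 30.0 and 31.5 CPM in LKO 1 to 3, against 44.1, 34.8 and 40.5 CPM in WT 1 to 3 (log2 difference -0.18, standard error 0.22, edgeR adjusted p = 0.91). Its level did not set the groups apart, and no source used here gives the floxed exons, so the libraries are called LKO-labelled and WT-labelled. All 11 macrophage markers had log2 differences below 0, with TMM factors and with library totals. In sum they measured 368, 259 and 319 CPM in LKO 1 to 3, against 258, 381 and 810 CPM in WT 1 to 3. WT 3 was thus the highest library and WT 1 the lowest. The part of these markers in the results was not tested. In LKO 2 and LKO 3, 36.3% and 37.8% of annotated transcripts had counts, against 30.2% to 31.2% in the other 4 libraries. For transcripts longer than 3000 bases, the median gap between length and effective length was the whole number 250 in LKO 1 and differed among the other libraries, between 241.9 and 262.3 bases. Transcripts of up to 800 bases took 22.9%, 16.6% and 15% of counts in LKO 1 to 3 and 25.7%, 17.0% and 21.6% in WT 1 to 3.

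None of the 8 genes passed the test between the groups, and the LKO-labelled and WT-labelled libraries overlapped for every gene in CPM scaled with the TMM factors of edgeR. Across all 12497 genes the edgeR test called 0% at an adjusted p under 0.05, DESeq2 called 0.088%, and the groups did not overlap for 9.34%, with the LKO-labelled group higher for 4.79%. The largest of the 8 differences was that of the pyruvate kinase gene Pklr, at 1.60-fold (edgeR adjusted p = 0.84). None of the 8 had an unadjusted p under 0.05 by edgeR, where 4.55% of all genes did. DESeq2 and limma voom called none of them either. Of the 8 log2 differences 5 lay above 0 and 3 below (all 8 above 0 with library totals), with a median of 0.12, where 51.6% of all tested genes lay above 0 with a median of 0.01. The 95% intervals, drawn with 4 residual degrees of freedom, all included 0, and their bounds reached -1.26 (Khk) and 1.75 (Pklr) on the log2 scale.

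**Figure D1:**
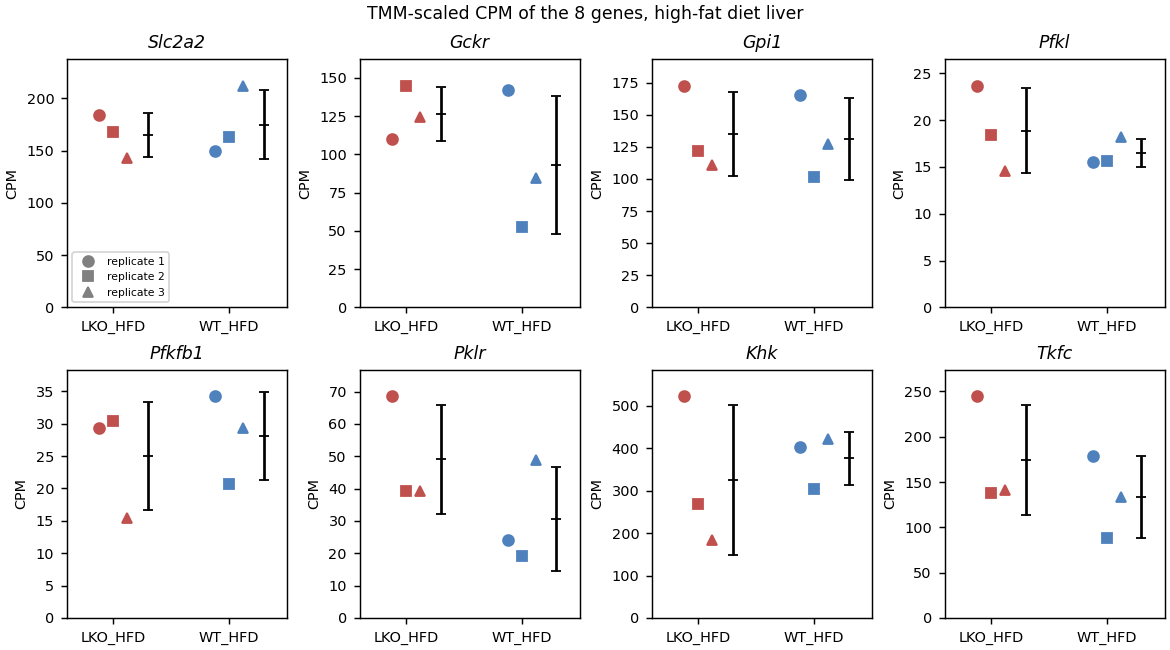
CPM (vertical axes, scaled with TMM factors) of each gene in the 3 LKO_HFD and the 3 WT_HFD libraries, with marker shapes for replicates and the mean ± SD drawn in black beside each group. The groups overlap in all 8 panels, and LKO 1 is the highest library for 5 of the genes.

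Slc2a2, Gckr and Gpi1 serve the entry of glucose into glycolysis. Slc2a2 encodes GLUT2, the high-capacity glucose transporter of the hepatocyte membrane (ENSMUSG00000027690; chromosome 3, 28697903 to 28731359, plus strand, GRCm38). It measured 184, 167 and 143 CPM in LKO 1 to 3, against 149, 163 and 212 CPM in WT 1 to 3. WT 3 was highest, LKO 3 lowest, and the other libraries interleaved. The means were 165 ± 20.7 CPM in the LKO-labelled group and 175 ± 32.9 CPM in the WT-labelled group (SD, n = 3 each), a log2 difference of -0.09 (standard error 0.22, 95% interval -0.71 to 0.54, edgeR adjusted p = 0.95).

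Gckr encodes a regulatory protein that restrains the phosphorylation of glucose in hepatocytes when glucose is low (ENSMUSG00000059434; chromosome 5, 31297443 to 31327314, plus strand, GRCm38). It measured 110, 145 and 124 CPM in LKO 1 to 3, against 142, 52.6 and 84.8 CPM in WT 1 to 3. The LKO-labelled libraries lay close together, while the WT-labelled ones ranged from the lowest library of all, WT 2, to one just below the top, WT 1. The means were 126 ± 17.6 CPM in the LKO-labelled group and 93.1 ± 45.2 CPM in the WT-labelled group (SD, n = 3 each; log2 difference 0.44, standard error 0.34, 95% interval -0.52 to 1.40, edgeR adjusted p = 0.86). This log2 difference was 0.16 without WT 2, 0.88 without WT 1, 0.0065 with an effective-length offset and -0.16 over protein-coding transcripts alone.

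Gpi1 encodes glucose-6-phosphate isomerase, which makes fructose 6-phosphate (ENSMUSG00000036427; chromosome 7, 34201330 to 34230336, minus strand, GRCm38). It measured 173, 121 and 111 CPM in LKO 1 to 3, against 165, 102 and 127 CPM in WT 1 to 3. Replicate 1 of each group was high, and the other 4 libraries lay lower. The group means were nearly equal, at 135 ± 33.0 CPM in the LKO-labelled group and 131 ± 31.9 CPM in the WT-labelled group (SD, n = 3 each; log2 difference 0.04, standard error 0.27, 95% interval -0.70 to 0.78, edgeR adjusted p = 0.98).

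Pfkl and Pfkfb1 act at the committed step. Pfkl encodes the liver subunit of phosphofructokinase (ENSMUSG00000020277; chromosome 10, 77986947 to 78010083, minus strand, GRCm38) and measured 23.7, 18.4 and 14.6 CPM in LKO 1 to 3, against 15.5, 15.7 and 18.2 CPM in WT 1 to 3. The LKO-labelled group held both the highest and the lowest library. The means were 18.9 ± 4.57 CPM in the LKO-labelled group and 16.5 ± 1.53 CPM in the WT-labelled group (SD, n = 3 each; log2 difference 0.20, standard error 0.22, 95% interval -0.42 to 0.81, edgeR adjusted p = 0.90). Without LKO 1 the log2 difference was -0.0043.

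Pfkfb1 encodes the liver bifunctional enzyme that makes and removes fructose 2,6-bisphosphate (ENSMUSG00000025271; chromosome X, 150588229 to 150643878, plus strand, GRCm38). It measured 29.4, 30.4 and 15.4 CPM in LKO 1 to 3, against 34.2, 20.8 and 29.3 CPM in WT 1 to 3. LKO 3 was lowest, next to WT 2, and the other 4 libraries lay close together. The means were 25.0 ± 8.38 CPM in the LKO-labelled group and 28.1 ± 6.82 CPM in the WT-labelled group (SD, n = 3 each; log2 difference -0.17, standard error 0.30, 95% interval -1.01 to 0.67, edgeR adjusted p = 0.94).

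Pklr encodes pyruvate kinase of liver and red blood cells, which forms pyruvate in the last step of glycolysis (ENSMUSG00000041237; chromosome 3, 89136142 to 89146784, plus strand, GRCm38). It measured 68.6, 39.1 and 39.4 CPM in LKO 1 to 3, against 24.0, 19.1 and 48.9 CPM in WT 1 to 3. LKO 1 stood highest, and WT 3 lay above LKO 2 and LKO 3, which is where the groups overlapped. The means were 49.0 ± 16.9 CPM in the LKO-labelled group and 30.6 ± 16.0 CPM in the WT-labelled group (SD, n = 3 each; log2 difference 0.68, standard error 0.39, 95% interval -0.39 to 1.75, edgeR adjusted p = 0.84). Its log2 difference was 0.35 without LKO 1, 0.43 without WT 2 and 1.19 without WT 3. All 5 red blood cell markers tested had log2 differences below 0 under either scaling. The 6 listed measured in sum 1106, 445 and 438 CPM in LKO 1 to 3 and 1677, 727 and 1495 CPM in WT 1 to 3. The Pklr sums include Pklr-201, the transcript of the red blood cell enzyme, which had 7.7 counts in LKO 2 and 0 in every other library. The part of red blood cells in the Pklr values was not tested.

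Nearly all Pklr counts fell on the transcript Pklr-202, with all of them there in LKO 1 and in WT 1 to 3, and 97.9% and 98.1% in LKO 2 and LKO 3. Pklr-201, which starts upstream of it and gives the red blood cell form of the enzyme, had 7.7 counts in LKO 2 and 0 in the other 5 libraries. The share on Pklr-202 differed between the groups by -1.33 percentage points in counts and by -18.5 in TPM (exact permutation p = 0.40 in TPM). The difference in TPM, a measure scaled by length, rests on few counts on short transcripts in LKO 2 and LKO 3. Among them Pklr-203, of 349 bases, had 9.1 and 11.1 counts in these libraries and 0 in every other. The promoter window at the start used by Pklr-202 is shown because a carbohydrate response element is known in the promoter of this gene, first described in the rat. The window is chr3:89136373-89136672 on the plus strand (RefSeq, GRCm38.p6), and its start position lies 51 bases downstream of that annotated for Pklr-202. Capitals mark a match to a carbohydrate response element, searched as CACGNG and, after any 5 bases, CNCGTG, and a match to TATAAA, each on both strands.
Pklr promoter: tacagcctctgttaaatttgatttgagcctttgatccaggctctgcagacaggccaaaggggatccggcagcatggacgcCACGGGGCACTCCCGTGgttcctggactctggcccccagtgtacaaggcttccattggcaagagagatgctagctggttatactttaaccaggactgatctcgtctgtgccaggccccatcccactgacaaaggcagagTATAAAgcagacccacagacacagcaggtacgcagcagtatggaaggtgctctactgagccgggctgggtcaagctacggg
The response element match, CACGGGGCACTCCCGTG, begins 170 bases before the RefSeq start and the TATAAA match 31 bases before it. The TATAAA match thus lies downstream of the start annotated for Pklr-202, and the response element match upstream of it. The response element letters occur in 15 of 32851 promoter windows of this length (0.0457%), and among the 12 windows of the 8 genes they occur in this one alone. TATAAA occurs in 13.6% of all windows. The E box CACGTG, which occurs in 7.15% of windows, was found in 1 of the 12, that of Khk at 71 bases before its RefSeq start. Searches for an HNF1 site (GTTAAT, any base, ATTAAC; 0.00913% of all windows) and for a D box (0.938%) matched none of the 12.

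Khk and Tkfc carry out the fructose steps. Khk encodes ketohexokinase, which phosphorylates fructose (ENSMUSG00000029162; chromosome 5, 30921431 to 30931248, plus strand, GRCm38), and lies 366195 bases upstream of Gckr. It measured 523, 269 and 184 CPM in LKO 1 to 3, against 402, 304 and 422 CPM in WT 1 to 3. The LKO-labelled group held the highest library and the 2 lowest, with all WT-labelled libraries between them. The means were 325 ± 176 CPM in the LKO-labelled group and 376 ± 63.0 CPM in the WT-labelled group (SD, n = 3 each; log2 difference -0.21, standard error 0.38, 95% interval -1.26 to 0.85, edgeR adjusted p = 0.94). The log2 difference was -0.73 without LKO 1 and 0.07 without LKO 3.

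Tkfc encodes triokinase, which phosphorylates glyceraldehyde, the other product of fructose cleavage (ENSMUSG00000034371; chromosome 19, 10587791 to 10605654, minus strand, GRCm38). It measured 245, 137 and 141 CPM in LKO 1 to 3, against 179, 87.7 and 134 CPM in WT 1 to 3. LKO 1 was highest and WT 2 lowest, and WT 1 lay above LKO 2 and LKO 3. The means were 174 ± 61.0 CPM in the LKO-labelled group and 134 ± 45.6 CPM in the WT-labelled group (SD, n = 3 each; log2 difference 0.38, standard error 0.33, 95% interval -0.55 to 1.31, edgeR adjusted p = 0.87). Without LKO 1 the log2 difference was 0.06.

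On the log2 CPM scale, the median deviation of the 8 genes from their mean over the libraries was 0.42, 0.03 and -0.23 in LKO 1 to 3, against 0.28, -0.33 and 0.13 in WT 1 to 3. The same median over all tested genes lay between 0.00023 and 0.032 in the 6 libraries. LKO 1 was the highest library for 5 genes, and the lowest library was LKO 3 for 4 genes and WT 2 for the other 4. Of the 28 pairs of these genes, 26 had a Pearson r above 0 over the 6 libraries, from Tkfc and Gpi1 as the most alike (r = 0.91) to Gckr and Slc2a2 as the least alike (r = -0.32). These are descriptions over libraries that share depth and scaling. Profiles of 6084 other genes with a mean of at least 10 CPM were compared with the mean of the 8. The most alike included Cyp17a1 (Pearson r = 0.99 over the 6 libraries), Prkag2 (0.98), Bgn (0.98) and Irf2bp2 (0.97). They were picked for the highest r among many genes over few libraries, so these r values are no test of a link. Cyp17a1, a steroid 17-alpha-hydroxylase, measured 98.1, 27.5 and 8.30 CPM in LKO 1 to 3, against 23.0, 3.72 and 23.5 CPM in WT 1 to 3.

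**Figure D2:**
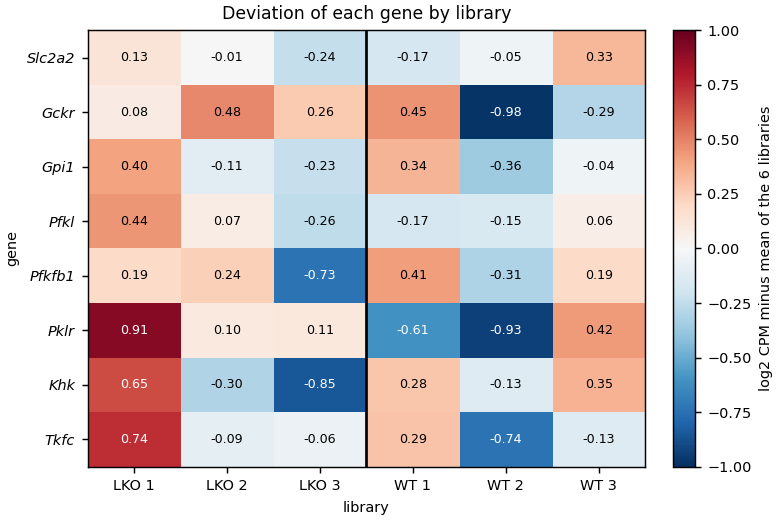
Log2 CPM of each gene minus its mean over the 6 libraries, with LKO libraries left of the line and WT libraries right of it. LKO 1 is above the mean for all 8 genes and WT 2 below it for all 8, while the other libraries are mixed.

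Levels of different genes were set side by side in the deposited TPM, a transcript abundance scaled by length and library. Summed over all transcripts, Khk had 572 ± 377 TPM in the LKO-labelled group and 525 ± 164 TPM in the WT-labelled group (SD, n = 3 each), of which Khk-202, a retained-intron transcript of 544 bases, held 70.1% to 89.8% in each library. Protein-coding transcripts averaged 22.2% of the TPM of Khk, 22.8% for Slc2a2, 27.3% for Gckr and 33.4% for Gpi1, and at least 90.99% for each of the other 4 genes. On protein-coding transcripts alone, a measure chosen after seeing the data, Khk averaged 109 ± 20.9 TPM in the LKO-labelled group and 102 ± 38.4 TPM in the WT-labelled group. Tkfc came next, with 71.3 ± 13.98 TPM in the LKO-labelled group and 41.9 ± 12.4 TPM in the WT-labelled group (SD, n = 3 each). Gpi1, Gckr, Slc2a2, Pklr and Pfkfb1 followed with means over all libraries of 24.9, 18.5, 13.08, 13.05 and 12.8 TPM, and Pfkl was lowest at 3.93 TPM. The library values of neighbours in this order overlapped, except that every Pfkl value lay below every Pfkfb1 value. The order depends on the transcripts summed, since with all of them Gckr and Gpi1, at means of 78.5 and 76.0 TPM, stood above Tkfc at 57.9 TPM.

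In TPM summed over all transcripts the LKO-labelled libraries lay above every WT-labelled library for Pklr, Tkfc and Pfkl. Pklr had 20.3, 16.9 and 19.8 TPM in LKO 1 to 3, against 5.70, 4.66 and 14.04 TPM in WT 1 to 3. Tkfc had 87.7, 62.5 and 67.4 TPM in LKO 1 to 3, against 52.7, 27.8 and 49.1 TPM in WT 1 to 3. Pfkl had 5.34, 4.78 and 4.10 TPM in LKO 1 to 3, against 2.82, 2.99 and 3.99 TPM in WT 1 to 3. On protein-coding transcripts alone Pfkl overlapped, with 3.89 TPM in LKO 3 and 3.99 TPM in WT 3, while Pklr and Tkfc did not. Gpi1 did not overlap on that measure either, with 29.6, 27.5 and 27.1 TPM in LKO 1 to 3, against 25.6, 16.5 and 23.0 TPM in WT 1 to 3. TPM summed over all transcripts moved most genes the same way: the LKO-labelled libraries lay above all WT-labelled ones for 19.8% of the 12497 tested genes (20.1% in either direction), and the mean TPM was higher for 83.8%. The median ratio of mean TPM, LKO-labelled over WT-labelled, was 1.29 over the 8 genes and 1.29 over all tested genes, and it was 2.34 for Pklr, 1.68 for Tkfc and 1.45 for Pfkl. The TMM factors, which the TPM do not use, were 1.08, 1.07 and 1.14 in LKO 1 to 3 and 0.90, 0.84 and 1.00 in WT 1 to 3. With library totals in place of those factors the median log2 difference of all genes moved up by 0.26, and all 8 genes then lay above 0, with Khk at 0.03, Pfkfb1 at 0.07 and Slc2a2 at 0.16 where the scaled values lie below 0.

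**Figure D3:**
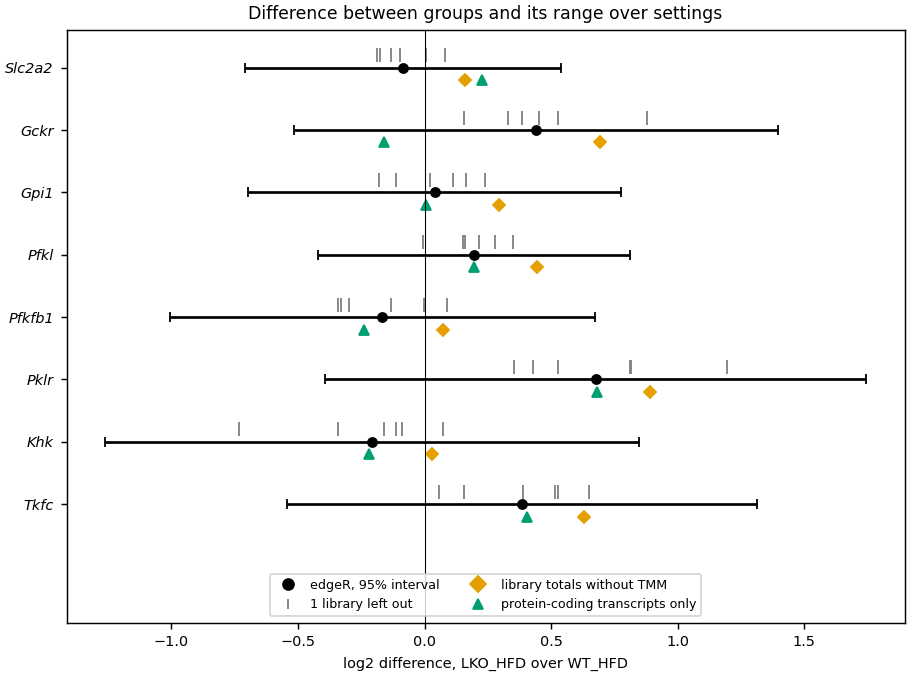
Log2 difference of each gene, LKO_HFD over WT_HFD, from edgeR with its 95% interval (black), with 1 library left out (grey ticks), with library totals (orange) and with protein-coding transcripts only (green). Every interval includes 0. The signs of Gckr and Slc2a2 turn when only protein-coding transcripts are summed, and those of Khk, Slc2a2 and Pfkfb1 with library totals.

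The sums hide differences between libraries in how counts were spread over annotated transcripts of the same gene. The files list 53 transcripts of the 8 genes, of which 42 had counts and 23 passed the filter for a test by transcript. None was called by edgeR, as was none of all 22297 transcripts tested (0%), and 3 of the 23 had an unadjusted p under 0.05 (2.80% of all transcripts did). These were Gckr-207, Tkfc-202 and Pfkfb1-204. All 3 had their highest counts in LKO 2 and LKO 3, where 36.3% and 37.8% of all annotated transcripts had counts, more than in any other library. The part of that library difference in their values was not tested. Shares of a gene's counts were compared with a two-sided exact permutation test over the 6 libraries, whose smallest p is 0.10. Counts by transcript are estimates, and the uncertainty of their split between transcripts of a gene was not measured and does not enter these p-values.

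Gckr counts fell on a coding transcript, on one that keeps introns and on a short one at the end of the gene. The coding Gckr-202 (19 exons, 2272 bases) had 1129, 1138 and 870 counts in LKO 1 to 3, against 1182, 677 and 1061 counts in WT 1 to 3. Gckr-207 (4014 bases), annotated as a retained-intron transcript, had 318, 1799 and 1776 counts in LKO 1 to 3, against 406, 131 and 256 counts in WT 1 to 3. LKO 2 and LKO 3 stood well above all other libraries for Gckr-207, while LKO 1 lay below WT 1. Its share of Gckr counts was 12.5%, 54.95% and 59.8% in LKO 1 to 3, against 15.2%, 13.7% and 14.3% in WT 1 to 3. For Gckr-207 the log2 difference was 2.06 (standard error 0.76, unadjusted p = 0.037, edgeR adjusted p = 0.999). The share on Gckr-202 averaged 36.1 ± 7.63% in the LKO-labelled group and 58.1 ± 13.1% in the WT-labelled group (SD, n = 3 each; exact permutation p = 0.20), a difference of -22.0 percentage points that was -7.07 in shares of TPM.

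Gckr-207 keeps 2 neighbouring introns that Gckr-202 lacks, of 1413 bases (31305075 to 31306487) and 459 bases. The exon-intron boundary at which the longer one begins is shown because the transcripts part there. It is chr5:31305045-31305134 on the plus strand (GENCODE M21, GRCm38), and capitals mark exon bases.
Gckr boundary: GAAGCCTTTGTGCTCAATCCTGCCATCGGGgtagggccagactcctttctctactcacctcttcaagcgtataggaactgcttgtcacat
The test of Gckr over protein-coding transcripts alone gave an edgeR adjusted p of 0.95. Over all genes, retained-intron transcripts longer than 800 bases took 1.38%, 1.33% and 1.38% of counts in LKO 1 to 3 and 1.38%, 0.77% and 0.99% in WT 1 to 3. The share of such transcripts with counts was 42.9%, 51.0% and 54.0% in LKO 1 to 3, against 44.8%, 37.0% and 40.7% in WT 1 to 3, and mitochondrial transcripts took 7.57%, 9.19% and 10.16% of counts in LKO 1 to 3, against 7.405%, 7.64% and 7.215% in WT 1 to 3. The part of either in the Gckr-207 values was not tested.

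**Figure D4:**
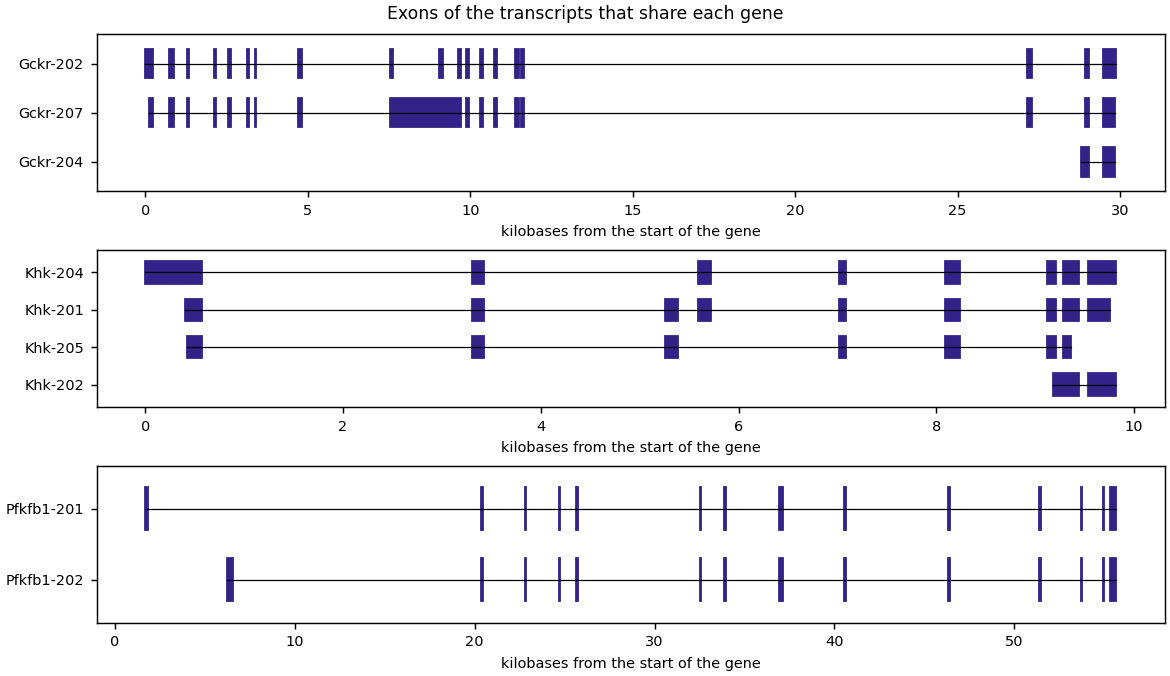
Exons (boxes) of transcripts of Gckr, Khk and Pfkfb1, drawn to scale along the gene in kilobases from its start. Gckr-207 keeps introns that Gckr-202 lacks, Gckr-204 and Khk-202 cover only the end of their genes, and the Pfkfb1 transcripts differ in their first exon.

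The short end transcripts took much of the counts in LKO 1 and WT 1. Gckr-204, of 632 bases and ending 17 bases before the end of the gene, held 42.6%, 9.998% and 10.27% of Gckr counts in LKO 1 to 3, against 40.3%, 14.9% and 25.5% in WT 1 to 3. Khk-202, of 544 bases and ending 3 bases before the end of its gene, held 63.3%, 34.3% and 36.4% of Khk counts in LKO 1 to 3, against 67.5%, 34.8% and 43.0% in WT 1 to 3. The same libraries were high for both, LKO 1 and WT 1. Over all genes, retained-intron transcripts of up to 800 bases took 1.85%, 0.60% and 0.60% of counts in LKO 1 to 3 and 1.51%, 0.57% and 0.98% in WT 1 to 3. The part of this difference between libraries in the gene sums was not tested.

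Khk is known for a pair of neighbouring exons whose alternative use gives ketohexokinase C, the liver form with high affinity for fructose, or the widely expressed ketohexokinase A. In the annotation Khk-204 holds the second exon of the pair alone, Khk-205 the first alone, and Khk-201 holds both. Khk-204 had 3639, 3729 and 2564 counts in LKO 1 to 3, against 2158, 3398 and 4716 counts in WT 1 to 3. Khk-205 had 54.0, 13.9 and 8.9 counts in LKO 1 to 3, against 17.5, 22.4 and 24.7 counts in WT 1 to 3. Khk-201 took 5.79%, 3.63% and 4.51% of Khk counts in LKO 1 to 3, against 3.43%, 3.27% and 3.05% in WT 1 to 3. The counts of transcripts with the second exon thus far exceeded those of Khk-205 in every library, and neither Khk-204 (log2 difference -0.28) nor Khk-205 (0.02) passed the test (edgeR adjusted p = 0.999 for each). The exons are shown because they are what sets these transcripts apart. They lie at chr5:30926688-30926822 and chr5:30927022-30927156 on the plus strand (GENCODE M21, GRCm38), each of 135 bases, and capitals mark the bases that differ between them when aligned without gaps.
Khk first exon of the pair: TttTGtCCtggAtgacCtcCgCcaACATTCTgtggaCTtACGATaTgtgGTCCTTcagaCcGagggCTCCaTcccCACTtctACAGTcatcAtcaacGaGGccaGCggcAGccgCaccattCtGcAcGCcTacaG
Khk second exon of the pair: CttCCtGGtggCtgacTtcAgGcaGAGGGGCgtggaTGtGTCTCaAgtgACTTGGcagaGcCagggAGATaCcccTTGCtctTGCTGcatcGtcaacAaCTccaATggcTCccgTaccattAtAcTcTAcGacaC
They share 73 of 135 bases (54.1%).

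Pfkfb1 counts were split in unlike proportions between transcripts that differ in their first exon. Pfkfb1-201 and Pfkfb1-202 share 13 exons, and their starts lie 4557 bases apart. Pfkfb1-201 had 618, 116 and 105 counts in LKO 1 to 3, against 616, 205 and 436 counts in WT 1 to 3. Pfkfb1-202 had 43.7, 508 and 238 counts in LKO 1 to 3, against 18.6, 167 and 173 counts in WT 1 to 3. LKO 1 and WT 1 were nearly all Pfkfb1-201, LKO 2 and LKO 3 mostly Pfkfb1-202, and WT 2 and WT 3 lay between. The share on Pfkfb1-201 averaged 45.4 ± 39.7% in the LKO-labelled group and 73.6 ± 21.01% in the WT-labelled group (SD, n = 3 each; exact permutation p = 0.30). This difference of -28.2 percentage points was -50.9 without LKO 1, -13.96 without LKO 2 and -17.1 without WT 1. Pfkfb1-204, a processed transcript of 757 bases inside the gene, had 11.8, 45.2 and 15 counts in LKO 1 to 3, against 2.0, 4.0 and 4.0 counts in WT 1 to 3. The groups did not overlap for it, as for 8.30% of all transcripts tested (4.12% with the LKO-labelled group higher). Its log2 difference was 2.57 (standard error 0.77, unadjusted p = 0.016, edgeR adjusted p = 0.999).

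The promoter windows of the alternative Pfkfb1 starts are shown because the libraries differed in which of them the counts favoured. The RefSeq start of the first window lies 5 bases from that of Pfkfb1-201 and the start of the second 50 bases from that of Pfkfb1-202, and capitals mark TATAAA. They are chrX:150589666-150589965 and chrX:150594178-150594477 on the plus strand (RefSeq, GRCm38.p6).
Pfkfb1-201 promoter: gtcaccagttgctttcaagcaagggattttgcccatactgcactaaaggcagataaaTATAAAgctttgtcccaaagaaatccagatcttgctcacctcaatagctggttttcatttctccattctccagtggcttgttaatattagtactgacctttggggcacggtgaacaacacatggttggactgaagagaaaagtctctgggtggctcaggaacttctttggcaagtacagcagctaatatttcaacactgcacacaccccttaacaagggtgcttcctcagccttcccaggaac
Pfkfb1-202 promoter: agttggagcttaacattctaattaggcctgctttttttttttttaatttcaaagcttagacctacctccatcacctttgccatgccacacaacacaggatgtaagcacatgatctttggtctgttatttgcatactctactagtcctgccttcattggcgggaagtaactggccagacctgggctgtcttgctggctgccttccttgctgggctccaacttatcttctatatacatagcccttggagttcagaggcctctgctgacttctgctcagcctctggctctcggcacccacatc
TATAAA begins 193 bases before the start in the first window and was not found in the second.

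**Figure D5:**
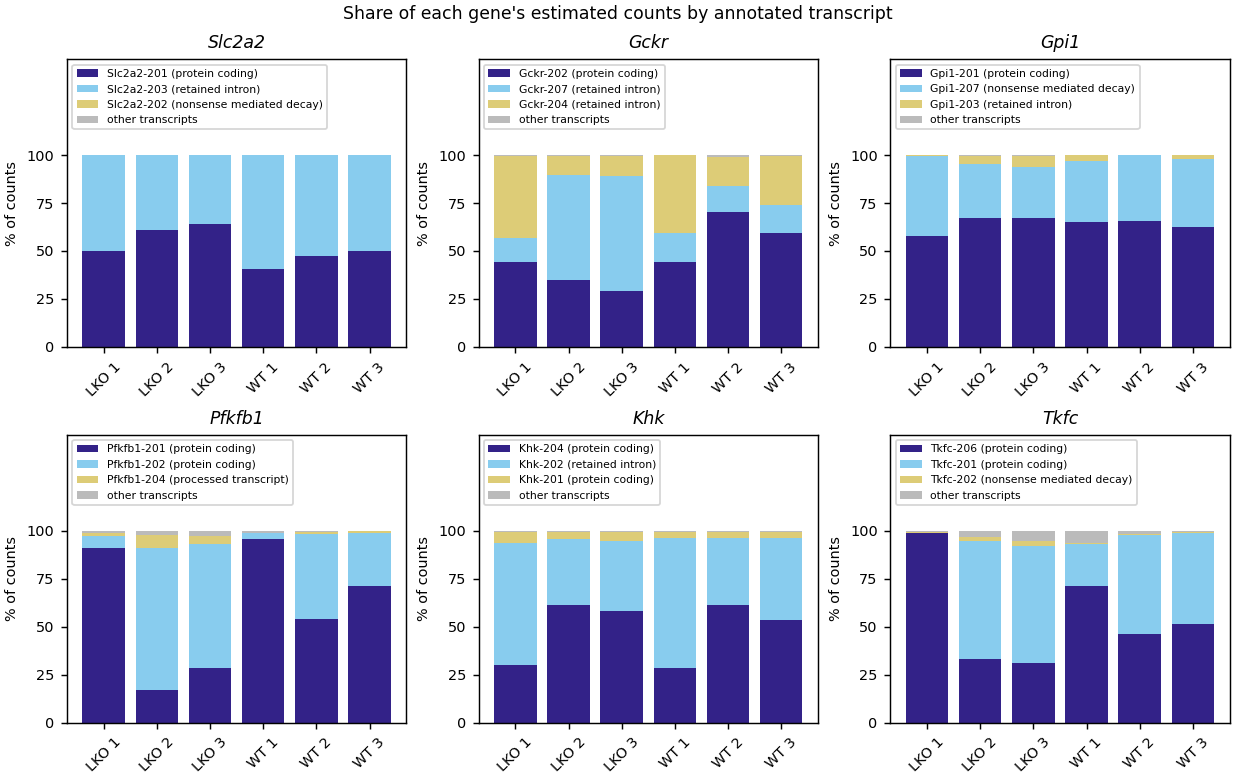
Share of each gene's estimated counts (percent) on its 3 transcripts with the highest mean share and on all others, in LKO 1 to 3 and WT 1 to 3. Gckr-207 takes over 50% of Gckr counts in LKO 2 and LKO 3, and Pfkfb1-202 most Pfkfb1 counts in the same libraries.

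Tkfc was divided between coding transcripts that differ at their 5′ end. Tkfc-206 held 98.9%, 33.3% and 31.2% of Tkfc counts in LKO 1 to 3, against 70.9%, 46.4% and 51.3% in WT 1 to 3 (exact permutation p = 1 for the difference in means). Tkfc-201 held 0%, 61.2% and 60.9% in LKO 1 to 3, against 22.0%, 51.2% and 47.3% in WT 1 to 3. Tkfc-203, of 18 exons and 2437 bases as Tkfc-206, had 195.8 counts in WT 1 and 0 in every other library. Shares of transcripts so alike are estimates and may not show which of them was made. Tkfc-202, annotated for nonsense-mediated decay, had 26.1, 62.5 and 91.7 counts in LKO 1 to 3, against 24.5, 8.4 and 14.5 counts in WT 1 to 3, a log2 difference of 1.72 (standard error 0.68, unadjusted p = 0.047, edgeR adjusted p = 0.999).

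Slc2a2 and Gpi1 were divided between a full-length and a shorter transcript, of the retained-intron and the nonsense-mediated decay class for Slc2a2-203 and Gpi1-207. The coding Slc2a2-201 held 50.2%, 60.8% and 63.9% of Slc2a2 counts in LKO 1 to 3, against 40.6%, 47.5% and 50.2% in WT 1 to 3. LKO 1 fell just below WT 3, and the other LKO-labelled libraries lay above all WT-labelled ones (exact permutation p = 0.20). Summed over this coding transcript alone, the log2 difference of Slc2a2 was 0.23 in place of -0.09. Gpi1-201 held 57.7% to 67.3% of Gpi1 counts in the LKO-labelled libraries and 62.7% to 65.9% in the WT-labelled ones (exact permutation p = 1). Pfkl-201 held at least 99.2% of Pfkl counts in every library.

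No gene of the wider pathway passed the edgeR test over all genes. The counts above and below 0 that follow depend on the scaling: if each library is scaled to its total alone, 14 of 19 genes in the rest of glycolysis, 10 of 11 in fructose and polyol handling, 14 of 17 in pyruvate fate and 8 of 14 in the pentose phosphate path lay above 0. In the rest of glycolysis, 6 of 19 tested genes lay above 0 and 13 below, at a median log2 difference of -0.09. The groups did not overlap for 1 (5.26%, against 9.34% of all genes), Adpgk (0.33), whose product phosphorylates glucose with ADP. Among isozymes typical of other tissues, the muscle aldolase gene Aldoa had a log2 difference of -0.30, the muscle phosphofructokinase gene Pfkm 0.28 and the muscle-type pyruvate kinase gene Pkm -0.28. Pkm measured 29.0, 10.98 and 12.95 CPM in LKO 1 to 3, against 17.9, 12.3 and 34.0 CPM in WT 1 to 3. Hexokinase 2 (Hk2) stayed at or below 1.29 CPM in every library. Summed isozymes of cells other than hepatocytes (15 genes) measured 142 to 202 CPM in the LKO-labelled libraries and 151 to 229 CPM in the WT-labelled ones.

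In fructose and polyol handling, 7 of 11 tested genes lay above 0 and 4 below, at a median of 0.01. Akr1b3, the aldose reductase that makes sorbitol from glucose, measured 5.95, 4.47 and 5.91 CPM in LKO 1 to 3, against 6.44, 10.7 and 10.5 CPM in WT 1 to 3. It was the 1 gene of this list without overlap (9.09%, against 9.34% of all genes), with a log2 difference of -0.76 (standard error 0.27, edgeR adjusted p = 0.84). Aldh1b1, Gpd1 and Aldh2, enzymes that oxidise aldehydes or make glycerol 3-phosphate, had log2 differences of 0.81, 0.47 and 0.41. Around fructose 2,6-bisphosphate, 5 of 8 tested genes lay above 0 and 3 below, with the related bifunctional enzymes Pfkfb3 and Pfkfb2 at -0.77 and 0.74, the fructose bisphosphatase gene Fbp1 at 0.30 and the phosphatase subunit gene Ppp2ca at -0.10.

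Around ChREBP, 16 of 20 tested genes lay above 0 and 4 below, at a median of 0.25 where all genes had 0.01, and with library totals 18 lay above 0. The groups did not overlap for 4 (20.0%, against 9.34% of all genes). These were G6pc, Acaca, Scd1 and Tkt, each higher in the LKO-labelled libraries, and Tkt was named after its values were seen. Scd1, a fatty acid desaturase, measured 2891, 1642 and 1145 CPM in LKO 1 to 3, against 566, 773 and 1102 CPM in WT 1 to 3 (log2 difference 1.22, standard error 0.41, edgeR adjusted p = 0.84). Mlxipl itself measured 102, 181 and 156 CPM in LKO 1 to 3, against 152, 52.1 and 68.4 CPM in WT 1 to 3, so that WT 1 lay above LKO 1. For Mlxipl the log2 difference was 0.68 (standard error 0.41, edgeR adjusted p = 0.84). Txnip, a glucose-responsive target of ChREBP, had a log2 difference of 0.10, and the citrate lyase gene Acly 0.44.

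In glucose output, 7 of 9 tested genes lay above 0 and 2 below, at a median of 0.30 (all 9 above 0 with library totals). The groups did not overlap for G6pc, already counted around ChREBP, and Pcx (22.2%, against 9.34% of all genes). G6pc, the glucose-6-phosphatase that releases free glucose, measured 389, 370 and 425 CPM in LKO 1 to 3, against 271, 165 and 323 CPM in WT 1 to 3 (log2 difference 0.64, standard error 0.28, edgeR adjusted p = 0.84). Pcx, which carboxylates pyruvate, had a log2 difference of 0.30, the gluconeogenic Pck1 0.32 and the coactivator gene Ppargc1a 0.49. In pyruvate fate, 7 of 17 tested genes lay above 0 and 10 below, at a median of -0.01. Dlat stood at 0.32, Pdp2 at -0.26 and the pyruvate carrier gene Mpc2 at -0.30. The groups did not overlap in this list for Pcx, higher in the LKO-labelled libraries, and Pdp2, lower there (11.8%). In the pentose phosphate path, 6 of 14 tested genes lay above 0 and 8 below, at a median of -0.16. Pgls, Rbks, Prps2 and Taldo1 had log2 differences of -0.60, -0.47, -0.34 and -0.45. The groups did not overlap in this list for Tkt, higher in the LKO-labelled libraries, and Prps2, lower there (14.3%). The 3 other sugar transporters tested all lay below 0, with Slc2a1 at -0.20, and 2 of them lay above 0 with library totals.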

How the data were processed

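Poly(A) RNA from 1 liver per mouse was sequenced, per the labels' protocols. Each deposited file lists transcripts with TPM and estimated counts, 2 lengths, and no scaling of the counts to depth, per the file headers and the values. The columns are those Salmon writes, while the submitters' processing notes name Bowtie2 2.2.5, RSEM 1.2.8, DESeq and GRCm38 with no role; no source used here names the transcriptome.

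Of 115221 transcripts, 113664 matched GENCODE M21 by identifier without version, and 1557 (0.22% to 0.27% of counts) were left out. Estimated counts were summed over 35082 genes and rounded. Strand use is not stated, so overlapping or antisense genes, like near-identical copies, may share reads. Genes kept by filterByExpr (12497) were scaled with TMM, and edgeR 4.0.16 (R 4.3.3) gave two-sided quasi-likelihood p-values, adjusted by Benjamini-Hochberg, with a threshold of 0.05. Transcripts were treated alike. Standard errors are the absolute log2 difference over the square root of F. Deviations and profiles use log2 CPM with a prior count of 2. Alternatives were other scalings, filters, length corrections, DESeq2 1.42.0, limma 3.58.1 voom with sample weights, the replicate block, and each library left out; protein-coding transcripts alone were added after seeing the data. On counts simulated for LKO_HFD over WT_HFD over 12312 genes, edgeR called 62 of 98 genes changed by 2 log2 units, 5 of 94 changed by 1, and 3 of 12120 unchanged. DESeq2 called 86, 32 and 24 of the same genes, so it found more changed genes and made more false calls.

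The 8 genes, the gene lists and the tests were chosen with earlier results of these data known. From each list up to 4 tested genes with the smallest p and at least 1 CPM are named, plus Mlxipl, Txnip, Hk2 and Pkm, and genes by likeness. Some genes chosen so are not reported here. Promoters are from a RefSeq table in which 8 of 8 genes matched.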

Additional observations from a re-analysis of the deposited data

How the results depend on the processing

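None of the 8 genes was called under any alternative run on the gene sums, and the smallest adjusted p among them was 0.17, for Gckr in limma voom with sample weights. The count of genes called over the whole table was 0 in both directions by edgeR (568 genes had an unadjusted p under 0.05), whereas DESeq2 called 6 higher and 5 lower, and leaving out 1 library gave 0 to 2 higher and 0 to 1 lower, the calls coming without LKO 1. No transcript was called with another filter, with the replicate block or without any 1 library. The median log2 difference of the 8 genes was 0.12 and ran from 0.02 to 0.37 over the other settings and from -0.09, without LKO 1, to 0.26, without LKO 3. It was 0.02 without WT 2, and 0.02 in limma voom with sample weights, 0.03 with an effective-length offset, 0.04 with the trend over transcript length removed and 0.37 with library totals. The sign turned with library totals for Khk (0.029), Slc2a2 (0.16) and Pfkfb1 (0.074), in limma voom for Gpi1 (-0.0085), with the length trend removed for Khk (0.0020), and with protein-coding transcripts alone for Gckr (-0.16) and Slc2a2 (0.23), and the cause was not tested. The Gckr difference was 0.0065 with an effective-length offset. With 1 library left out, the log2 difference ran from -0.73 to 0.074 for Khk, -0.19 to 0.083 for Slc2a2, -0.34 to 0.089 for Pfkfb1, -0.18 to 0.24 for Gpi1, -0.0043 to 0.35 for Pfkl, 0.16 to 0.88 for Gckr, 0.06 to 0.65 for Tkfc and 0.35 to 1.19 for Pklr. The difference between groups in the share of counts on the main transcript ran from -13.0 to 5.81 percentage points for Khk, -24.0 to 9.85 for Tkfc, -50.9 to -13.96 for Pfkfb1, -28.9 to -15.8 for Gckr and -2.04 to 2.76 for Gpi1 with 1 library left out, and that of Gpi1 was 0.72 in TPM in place of -0.43 in counts.

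Libraries with the same replicate number did not all deviate together. The correlations of their deviations from the group means were 0.20, 0.27 and -0.14 for numbers 1 to 3. LKO 1 and WT 1 both had high shares of the short end transcripts Gckr-204 and Khk-202. Whether libraries of 1 number share more than that number was not tested. With the replicate block, 0 genes and 0 transcripts were called, the median of the 8 genes was 0.11, and Pklr stood at 0.75. LKO 1 correlated best with WT 3 (0.23) and LKO 3 with WT 2 (0.34). Groups of 3 limit the precision of every difference given.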
